A study of Mus musculus with 21 samples.

Results

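Notochord progenitors of the mouse embryo (NotoPs) were compared between embryonic day 9.5 (E9.5) and E8.5, with 1 RNA-seq library of 250 sorted cells at each stage. Genes were taken from a table of 23983 genes: the 8877 genes that reached 5 FPKM (sequenced fragments scaled to transcript length and to the size of the library) in either library were compared, and a gene was counted as changed when its ratio of FPKM + 1 between the stages was 3-fold or more. By this rule 339 genes were higher at E9.5, which is 3.82% of those compared, and 326 genes were lower, which is 3.67%. These counts follow from the rule, and with 1 library a stage no replicate error, SD or p-value can be given for any value below. Fewer cells of a type and less RNA per cell cannot be told apart in such bulk libraries.

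All embryonic cells came from genetically modified F1G4 (C57BL/6N x SV129) mouse embryonic stem cells, in which large genomic clones (BACs) of T, Noto and Foxa2 drive the nuclear reporters H2B-Venus, H2B-mCherry and H2B-mTurquoise. The E8.5 NotoP library (Theiler stage 12) pooled caudal ends of 5 embryos with 9 to 11 somites, and the E9.5 library (Theiler stage 16) pooled 5 embryos with 24 to 28 somites, both sorted as Noto+/T+/Foxa2+. The study's sample list gives the E9.5 gate as Foxa2 high and the E8.5 gate as Foxa2+, so stage and gate cannot be told apart; the labels give tetraploid complementation as the source of the embryos, where the study's text describes diploid morula aggregation. Mesodermal progenitors (MPs, T+/Noto-/Foxa2-, same embryonic region) and trunk notochord (Noto+/T+/Foxa2+, Foxa2 high in the sample list, cut from the trunk) were sorted from embryos of the same genotype at both stages, again with 1 library each, and the 3 pairs of stages share no library. The trunk pools took 8 embryos of 4 to 11 somites at E8.5 and 5 embryos of 24 to 32 somites at E9.5, so the earlier pool reaches younger embryos than that of NotoPs.

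The notochord is the axial rod of mesoderm that patterns the neural tube, gut and somites by secreting Sonic hedgehog and BMP antagonists. It arises from the node at the anterior end of the primitive streak, whose ciliated pit cells also set the left-right axis of the embryo. As the body grows, NotoPs at the caudal end keep adding cells to the notochord of progressively more posterior levels, a process in which T (brachyury), Foxa2 and Noto act as transcription factors. Hox genes are switched on in the order of their paralog groups in the caudal progenitors, so that later-born tissue carries genes of higher number.

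The NotoP libraries held 3343606 (E8.5) and 4788324 (E9.5) de-duplicated mapped reads, against 1198064 and 6246472 for MPs and 1664032 and 1581548 for trunk notochord. MPs at E8.5 came from 24 cells, and trunk notochord from 73 and 90 cells. In MPs at E8.5, 87 genes were listed at 0 while reaching 5 FPKM in all 5 other embryonic libraries, and 3 in MPs at E9.5. Trunk notochord had 11 such genes at E8.5 and 46 at E9.5, against 0 in either NotoP library. Whether these zeros came from low cell numbers or few reads was not tested. All 12 notochord markers checked (T, Noto, Foxa2, Shh, Chrd, Nog, Foxa1, Mnx1, Lmx1a, Sox9, Cthrc1 and Igfbp5) were at 5 FPKM or more in both NotoP libraries, summing to 1832 FPKM at E8.5 and 1503 FPKM at E9.5. Of the markers of other cells, 9 of 10 blood genes were at 0 in both NotoP libraries, and visceral endoderm markers summed to 14.1 and 22.6 FPKM, with 8 and 9 of 12 at 0. Paraxial mesoderm markers summed to 327 and 243 FPKM over 21 genes and neural markers to 74.6 and 42.2 FPKM over 19 genes, so neither list was higher at E9.5. In MPs the paraxial list summed to 320 FPKM at E8.5 and 565 FPKM at E9.5. The E8.5 NotoP library thus held these markers at about the level of the E8.5 MPs, and the source of this signal was not tested.

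Most genes of NotoPs stayed close to their E8.5 level. The ratio was under 2-fold for 7264 of 8877 genes (81.8%), and the median log2 ratio of E9.5 to E8.5 was -0.03, with quartiles of -0.45 and 0.40. Genes past 3-fold were mainly genes of low level. Of the 2139 genes whose larger NotoP value was 5 to 10 FPKM, 14.7% were past 3-fold, falling through 7.9%, 4.41% and 3.09% in the ranges 10 to 20, 20 to 50 and 50 to 100 FPKM to 0.462% of the 650 genes at 100 FPKM or more. The larger value was under 20 FPKM for 269 of the 339 higher genes and 251 of the 326 lower genes. A further limit is that 72 of the higher genes were listed at 0 at E8.5 and 62 of the lower genes at 0 at E9.5, and no fold change is given for these. At the line itself, Chrac1 (6.65 FPKM at E8.5, 21.9 FPKM at E9.5) was just inside and Hint1 (34.4 and 105 FPKM) just outside on the higher side. On the lower side Man1a (8.00 and 1.99 FPKM) was just inside and Amn1 (34.0 and 10.7 FPKM) just outside.

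**Figure D1:**
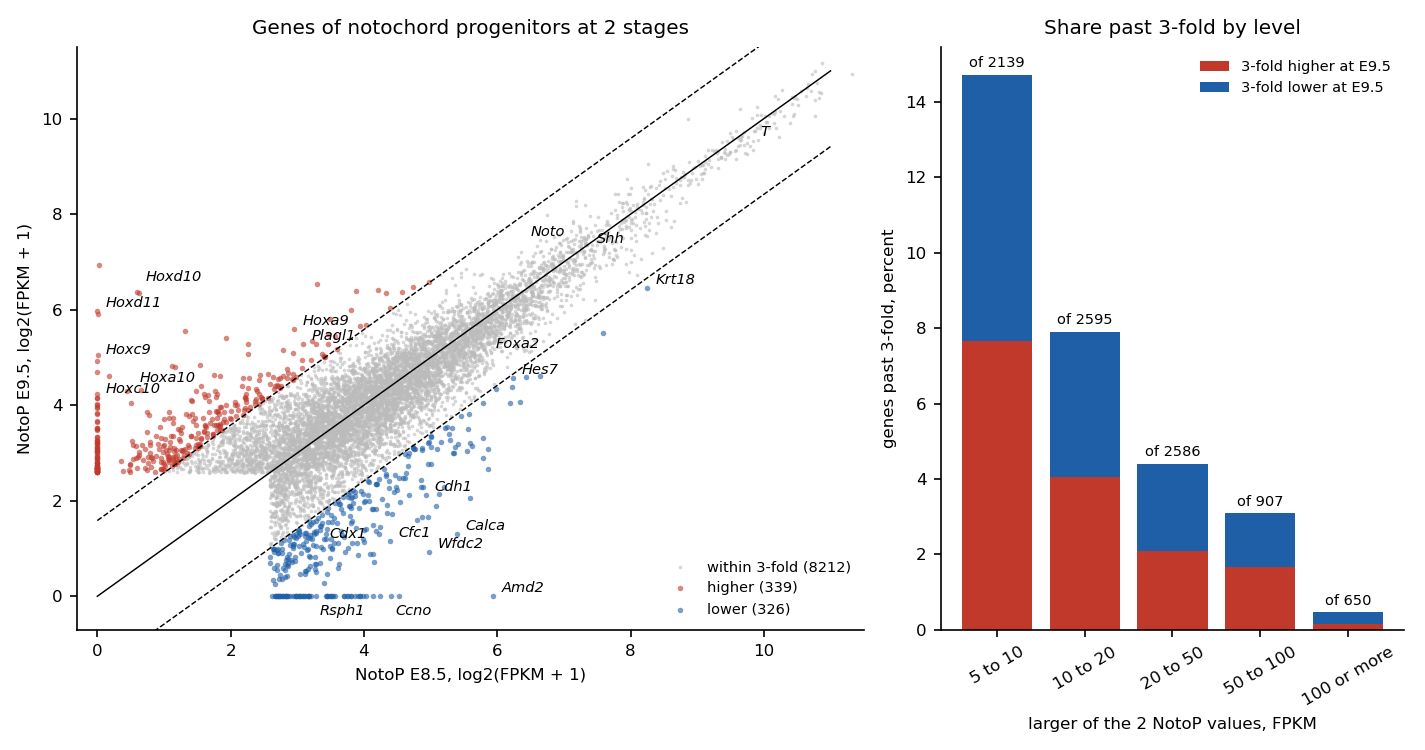
Left, each point is a gene with 5 FPKM or more in either NotoP library, plotted as log2(FPKM + 1) at E8.5 (x axis) and E9.5 (y axis); the solid line marks equal values and the dashed lines 3-fold. Right, stacked bars give the percent of genes 3-fold higher or lower by the larger of the 2 NotoP values in FPKM, with the number of genes above each bar; the share past 3-fold falls from 14.7% at 5 to 10 FPKM to 0.462% at 100 FPKM or more.

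The 3 genes used for the sort differed little between the stages. T was at 909 FPKM at E8.5 and 744 FPKM at E9.5, Noto at 152 and 164 FPKM, and Foxa2 at 57.0 and 45.6 FPKM. Because cells were gated on these reporters, their levels check the sort and are no finding. Of 22 notochord and node transcription factors, 13 reached 5 FPKM and none of them passed 3-fold in either direction, with a median log2 ratio of -0.38. The 9 below 5 FPKM were less even: 6 were lower at E9.5, 2 were higher (Sox5 and Otx2) and 1 was at 0 at both stages. Among the 6, Foxa3 was at 4.16 and 0.316 FPKM. Foxj1 (4.76 FPKM), Foxd4 (2.81 FPKM) and Lmx1b (2.32 FPKM) were listed at 0 at E9.5. Foxa1, a close relative of Foxa2, stood at 41.7 and 44.3 FPKM. Lmx1a and Mnx1, homeobox genes of the notochord, stood at 45.2 and 42.8 FPKM and at 24.6 and 23.0 FPKM. The largest difference among these 13 was that of Bicc1, an RNA-binding protein of the node that acts in left-right patterning. It was at 159 FPKM at E8.5 and 54.2 FPKM at E9.5 (log2 ratio -1.54), and it was lower in trunk notochord too (39.0 and 13.0 FPKM). In MPs Bicc1 differed the other way, listed at 0 at E8.5 and at 5.16 FPKM at E9.5. Shh itself was at 161 and 178 FPKM.

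Hox genes formed the group with the largest upward difference. Of 39 Hox genes in the table, 29 reached 5 FPKM in either NotoP library, 11 of these were 3-fold or more higher at E9.5 and 1 was lower, with a median log2 ratio of 0.95 against -0.03 over all genes compared. The difference was steepest at the posterior end of the clusters. Summed over the 12 genes of paralog groups 10 to 13, NotoPs held 1.68 FPKM at E8.5 and 200.3 FPKM at E9.5. Over the 4 genes of group 9 the sums were 49.1 and 132 FPKM, over the 11 genes of groups 5 to 8 they were 103 and 184 FPKM, and over the 12 genes of groups 1 to 4 they were 195 and 232 FPKM. The lower the paralog group, the closer the stages were to each other.

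Hoxd10 (chromosome 2, 74691924 to 74695105, GRCm38) was at 0.510 FPKM at E8.5 and 82.2 FPKM at E9.5, a log2 ratio of 5.78. Its neighbour Hoxd11, which starts at 74679557, was listed at 0 at E8.5 and stood at 62.0 FPKM at E9.5. Hoxc10 and Hoxc9 on chromosome 15 were also listed at 0 at E8.5, with 24.9 and 29.6 FPKM at E9.5. Hoxa10 went from 0.368 to 18.8 FPKM and Hoxa9 from 6.72 to 47.5 FPKM, with log2 ratios of 3.86 and 2.65. Those 6 genes belong to groups 9 to 11 of 3 different clusters. The remaining 5 higher genes lay further forward: Hoxc6 (3.55 and 22.7 FPKM), Hoxc5 (1.38 and 9.67 FPKM), Hoxd8 (14.3 and 49.3 FPKM), Hoxd3 (4.55 and 16.9 FPKM) and Hoxa4 (2.47 and 10.1 FPKM). The B cluster had no member past 3-fold: Hoxb9 was at 18.2 and 21.7 FPKM, Hoxb8 at 20.0 and 10.5 FPKM and Hoxb1 at 47.2 and 44.3 FPKM. Gm53, a transcript next to Hoxb9 on chromosome 11 (96251105 to 96264868), was nevertheless listed at 0 at E8.5 and stood at 16.7 FPKM at E9.5. Of the most posterior genes, Hoxc12, Hoxd12, Hoxa13 and Hoxb13 were at 0 in both NotoP libraries, and Hoxd13 reached 3.37 FPKM at E9.5.

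MPs carried the same posterior genes at E9.5 and had started from a higher level. In MPs, groups 10 to 13 summed to 34.8 FPKM at E8.5 and 447 FPKM at E9.5, with Hoxc10 at 8.14 and 151 FPKM, Hoxd11 at 3.28 and 74.5 FPKM and Hoxd10 at 11.2 and 68.5 FPKM. The group 9 genes that were higher in NotoPs were already on in MPs at E8.5: Hoxa9 stood at 29.7 and 29.3 FPKM and Hoxc9 at 18.1 and 26.6 FPKM. At E9.5 NotoPs and MPs were less than 2-fold apart in Hoxa9, Hoxc9, Hoxd10 and Hoxd11, while Hoxc10 was 24.9 FPKM in NotoPs and 151 FPKM in MPs, and Hoxa11 2.81 and 26.98 FPKM. Trunk notochord held almost none of the genes of groups 10 to 13. Its sums over groups 10 to 13 were 0.858 and 3.81 FPKM, and over group 9 they were 3.98 and 24.3 FPKM. The upward difference of the Hox list was not particular to NotoPs. Over the same 29 genes the median log2 ratio was 1.08 in trunk notochord, with 8 genes 3-fold higher and 2 lower. In MPs it was 0.52, with 5 higher and 1 lower. In trunk notochord Hoxb9 (3.26 and 15.9 FPKM) and Hoxb8 (1.66 and 11.7 FPKM) were higher, and Hoxb1 (7.41 and 1.14 FPKM) was lower. Cultured NotoP-like cells (NotoPdiff, made from embryonic stem cells by induced Foxa2) summed to 0.665 FPKM over groups 10 to 13 and to 3.22 FPKM over group 9, below both NotoP libraries on both counts.

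**Figure D2:**
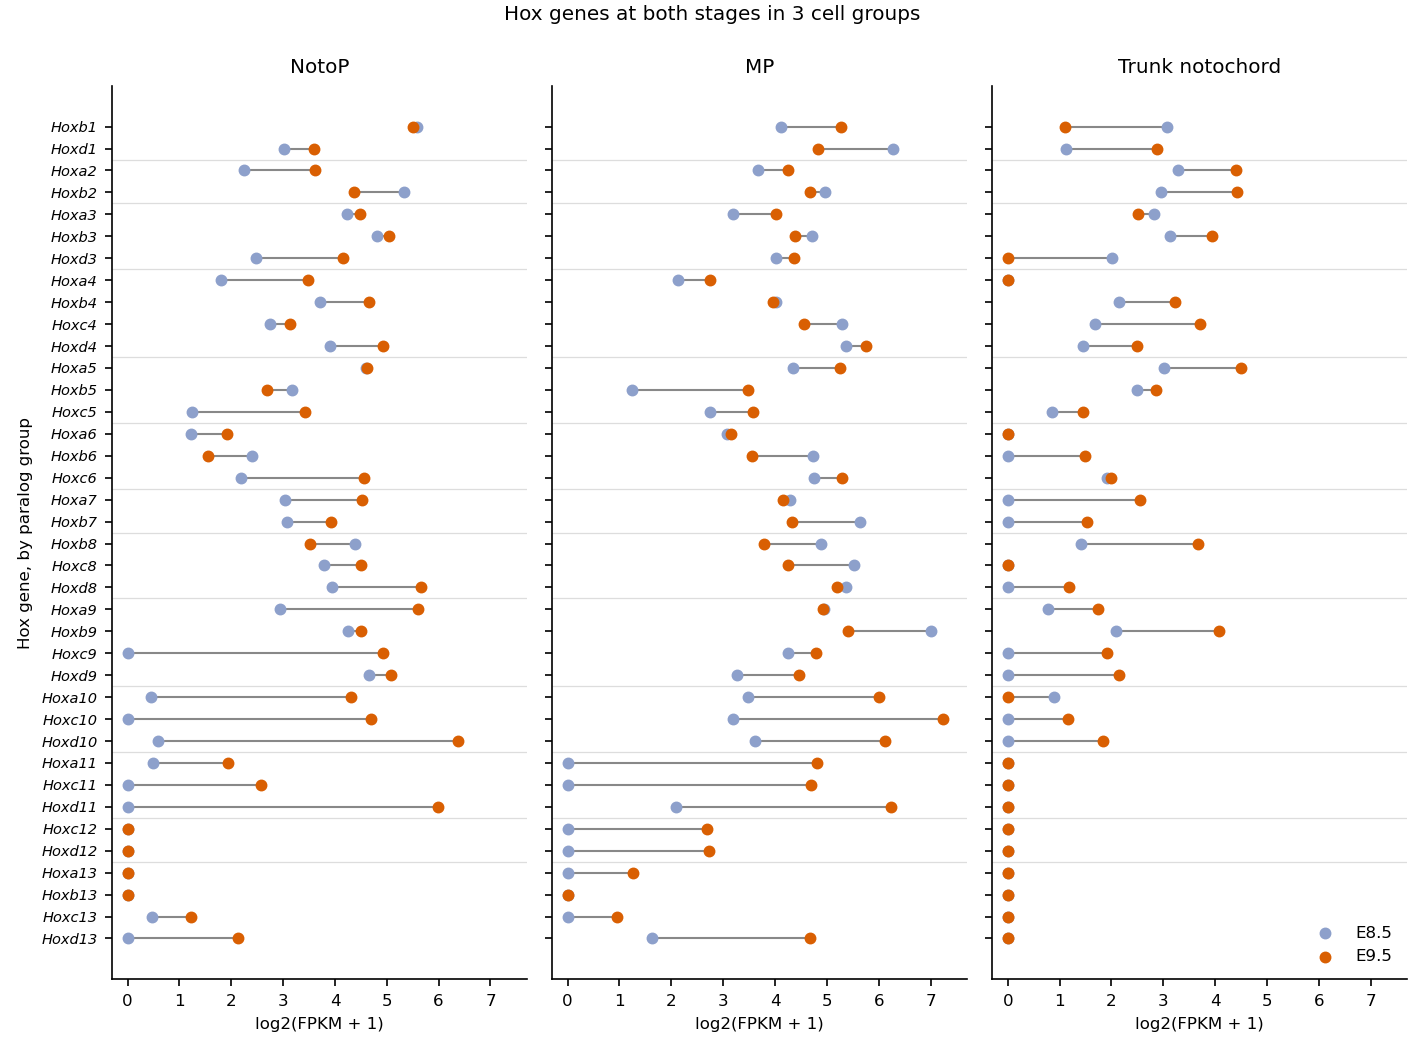
Level of 38 of the Hox genes, as log2(FPKM + 1), in NotoP, MP and trunk notochord libraries at E8.5 (blue) and E9.5 (orange), 1 library a point, ordered by paralog group from top to bottom with grey lines between groups. In NotoPs the long bars to the right lie at groups 9 to 11, and in trunk notochord the genes of groups 11 to 13 are at 0 at both stages.

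Genes of the ciliated node and of left-right patterning lay lower at E9.5. Of 52 genes listed, 46 were in the table and only 14 reached 5 FPKM in either NotoP library. None of the 14 was 3-fold higher and 5 were 3-fold lower, 11 lay below their E8.5 value to some degree, and the median log2 ratio was -0.97. Of all 8877 genes 3.67% were 3-fold lower and 52.4% lay below their E8.5 value. Cfc1 (chromosome 1, 34535648 to 34544313), which encodes the Nodal co-receptor Cryptic, was at 20.0 FPKM at E8.5 and 1.24 FPKM at E9.5 (log2 ratio -3.23). Nodal, the signal of the left side, was at 8.56 and 1.54 FPKM. Rsph1 and Rsph9, which encode radial spoke heads of motile cilia, were at 10.5 and 8.01 FPKM at E8.5 and both were listed at 0 at E9.5. Dnaaf3, a factor that assembles axonemal dynein, was at 5.60 and 0.294 FPKM. All 5 were at 20.0 FPKM or less, the range in which most genes past 3-fold lay.

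The 32 members in the table that did not reach 5 FPKM had no common direction: 12 were lower at E9.5, 10 were higher and 10 were at 0 at both stages. Foxj1, the master regulator of motile cilia, was at 4.76 FPKM at E8.5 and listed at 0 at E9.5. Spag6 stood at 3.82 and 0.261 FPKM and Hydin at 2.09 and 0.0816 FPKM, both components of the central apparatus of motile cilia. Ccdc39 (10.2 and 3.03 FPKM) and Spag16 (9.51 and 3.59 FPKM) were lower by less than 3-fold. Others did not follow: Rfx3, a transcription factor of ciliary genes in general, was at 19.6 and 24.5 FPKM, Pkd2, the calcium channel that senses flow, at 23.0 and 19.03 FPKM, and Mns1 at 15.7 and 33.9 FPKM. Dand5, the Nodal antagonist of the node margin, was at 9.53 and 5.29 FPKM. Below 5 FPKM, Lefty1, Lefty2 and Ccdc114 were listed at 0 at E8.5 and stood at 2.01, 2.62 and 2.36 FPKM at E9.5, and Ccdc40 was at 0.189 and 1.42 FPKM. Outside the list, Ccno, a cyclin-like gene required for making many cilia in a cell, had the largest difference of any lower gene other than Amd2: it was at 22.1 FPKM at E8.5 and listed at 0 at E9.5, and was at 0 in the 4 MP and trunk libraries.

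Secreted factors of the notochord were divided. Of 22 such genes 17 reached 5 FPKM, 4 of them were 3-fold lower at E9.5 and none was 3-fold higher, with 14 of 17 on the lower side and a median log2 ratio of -0.74. Of all genes compared, 52.4% were on the lower side and 3.67% were 3-fold lower. Calca, which encodes the peptides calcitonin and CGRP, had the largest difference, with 41.3 FPKM at E8.5 and 1.47 FPKM at E9.5 (log2 ratio -4.10). Chrd, the BMP antagonist Chordin, was at 37.1 and 10.6 FPKM (log2 ratio -1.72). Ntn1, the axon guidance factor Netrin 1, was at 19.2 and 4.94 FPKM, and Nodal was the fourth of these genes. Nog, the BMP antagonist Noggin, was at 75.1 and 37.2 FPKM, Cthrc1 at 127 and 60.9 FPKM, and Slit3 at 76.4 and 35.4 FPKM, all about 2-fold lower without passing the limit. Shh and the guidance factor Slit2 (119 and 141 FPKM) stayed at high levels, and so did Igfbp5 (151 and 122 FPKM). In trunk notochord Chrd was at 6.72 FPKM at E8.5 and listed at 0 at E9.5, while Shh was at 468 and 607 FPKM. Chrd, Nog, Calca, Nodal and Shh were at 0 or under 2 FPKM in MPs at both stages, so that their stage difference could not be compared there. NotoPdiff cells held 28.5 FPKM of Chrd, 27.7 FPKM of Calca, 24.5 FPKM of Nodal and 12.8 FPKM of Cfc1. For these 4 genes the cultured cells stood above the E9.5 library.

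**Figure D3:**
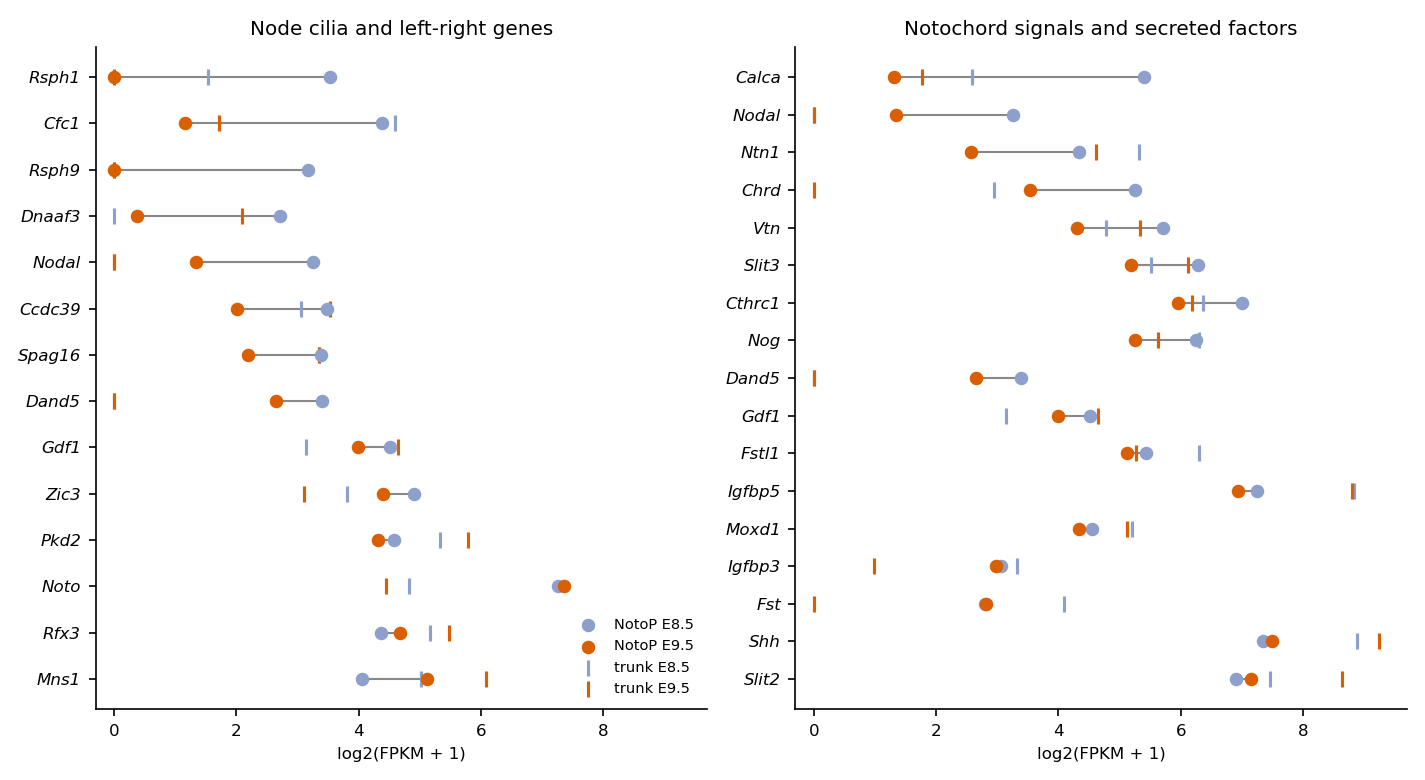
Level of the genes of 2 lists that reached 5 FPKM in either NotoP library, as log2(FPKM + 1): node cilia and left-right genes (left, 14 genes) and notochord signals and secreted factors (right, 17 genes), ordered from the most lowered at the top. Dots joined by a line are NotoP at E8.5 (blue) and E9.5 (orange), vertical ticks are trunk notochord at the same stages, and 1 library stands behind each mark; Rsph1 and Rsph9 are at 0 at E9.5, and Shh and Slit2 hardly move in NotoPs.

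Among factors of the caudal progenitor zone, 26 genes, 21 reached 5 FPKM, 1 was 3-fold higher, 2 were 3-fold lower and the median log2 ratio was -0.27. Cdx1, a homeobox regulator of Hox genes, was at 17.8 FPKM at E8.5 and 1.47 FPKM at E9.5, and was lower to a like degree in MPs (11.9 and 1.05 FPKM). Cdx2 (126 and 107 FPKM) and Cdx4 (26.0 and 32.7 FPKM) hardly differed in NotoPs. Grhl3, a transcription factor of surface epithelium, was at 6.45 and 1.39 FPKM. The higher gene was Cyp26a1, the enzyme that breaks down retinoic acid, with 10.1 and 37.97 FPKM in NotoPs (in MPs, 29.1 and 78.3 FPKM), whereas in trunk notochord it was at 6.17 FPKM at E8.5 and listed at 0 at E9.5. Wnt5a (9.53 and 29.1 FPKM) came close to 3-fold in NotoPs with a log2 ratio of 1.52, and was at 53.05 and 108 FPKM in MPs. Fgf8 (52.6 and 54.4 FPKM) and Wnt3a (15.4 and 11.2 FPKM), the growth signals of the tail bud, were at about the same level at both stages.

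In signalling pathways few genes passed 3-fold, while each list leaned to the lower side. On that side were 8 of 12 hedgehog genes (66.7%) and 12 of 17 BMP and TGF-beta genes (70.6%). So were 19 of 27 Wnt genes (70.4%) and 17 of 27 Fgf and retinoic acid genes (63.0%), against 52.4% of all genes. Their median log2 ratios were -0.37, -0.31, -0.24 and -0.25 in that order, against -0.03. In the hedgehog pathway 12 of 22 genes reached 5 FPKM and 1 passed 3-fold, the receptor component Boc (6.18 and 0.582 FPKM), while the target genes Ptch1 (150 and 86.0 FPKM) and Gli1 (23.2 and 16.9 FPKM) were lower by less than 2-fold. Of 17 BMP and TGF-beta genes compared, Chrd and the ligand Bmp5 (19.8 and 3.82 FPKM) were 3-fold lower and none was 3-fold higher. Among 27 Wnt genes 1 was 3-fold lower, Notum, a secreted enzyme that inactivates Wnt proteins. It was at 16.3 and 2.55 FPKM in NotoPs (in MPs, 11.6 and 0.679 FPKM). Of 27 Fgf and retinoic acid genes Cyp26a1 was 3-fold higher and 2 were 3-fold lower, Fgf5 among them. Fgf5, a gene of the early epiblast, was at 5.89 FPKM at E8.5 and listed at 0 at E9.5, 1 of 8 early embryo and pluripotency genes that reached 5 FPKM. All 8 were on the lower side, against 52.4% of all genes, with a median log2 ratio of -0.78, while the 18 other genes of that list did not reach 5 FPKM and 13 of them were at 0 at both stages. Hes7, the oscillating repressor of the segmentation clock, was 74.3 FPKM in NotoPs at E8.5 and 22.7 FPKM at E9.5, the single changed gene of 9 paraxial mesoderm markers compared.

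Epithelial genes were mixed. Of 20 keratin, junction and adhesion genes compared, 3 were lower and 1 was higher. Krt18, an epithelial keratin, was at 304 FPKM at E8.5 and 86.5 FPKM at E9.5 (log2 ratio -1.80), and also lower in trunk notochord (627 and 217 FPKM) and in MPs (16.7 and 1.63 FPKM). Cdh1, which encodes E-cadherin, was at 29.5 and 3.36 FPKM in NotoPs, 37.4 and 11.3 FPKM in trunk notochord and 5.88 and 0.933 FPKM in MPs. Cav1 was at 7.91 and 0.491 FPKM. The higher gene was Krt7, at 1.78 and 18.7 FPKM in NotoPs. Of 32 matrix genes compared, only Bgn, the proteoglycan biglycan, passed 3-fold (5.92 and 23.5 FPKM), and the median log2 ratio of the list was -0.03, that of all genes.

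The remaining lists held few changed genes: in the cell cycle list 1 of 47 was higher (Btg2, 5.2 and 23.0 FPKM) and 2 were lower (Gins2, 39.1 and 10.5 FPKM, and Gadd45g, 14.8 FPKM and listed at 0). Of 29 genes compared in the glycolysis list 1 was higher (Eno3, 2.55 and 13.0 FPKM) and 3 were lower (Aldoc, Eno2 and Ankrd37). Ankrd37 was counted as a member of that list and is not a glycolytic enzyme. Of 14 immediate early and heat shock genes compared, Btg2 was higher and Ddit3 lower. None of 16 housekeeping genes compared passed 3-fold, and their median log2 ratio was -0.01. Of 22 imprinted growth genes, Plagl1 was higher and Phlda2 lower, and both are taken up again with the other cells. Of 46 replication-dependent histone genes 1 was higher (Hist4h4) and 2 were lower (Hist1h2ad and Hist1h2bf), and these near-identical genes share reads.

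**Figure D4:**
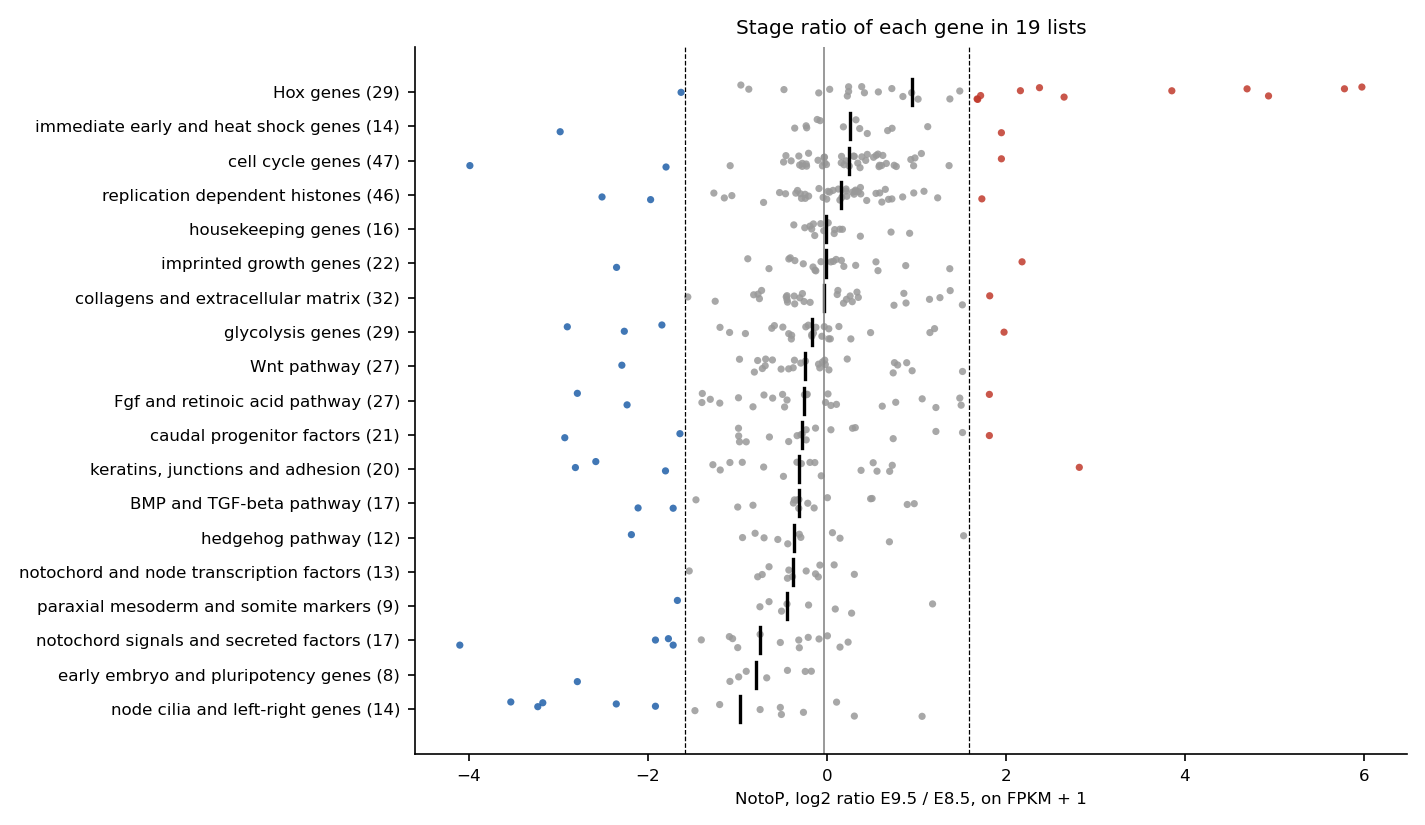
Log2 ratio of E9.5 to E8.5 in NotoPs, on FPKM + 1, for each gene compared in the 19 lists with 8 or more such genes (number in brackets). Each point is a gene in 1 pair of libraries, red or blue when past 3-fold; black bars are list medians, dashed lines 3-fold and the grey line the median of all genes, and the median is highest for Hox genes (0.95) and lowest for node cilia and left-right genes (-0.97).

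The largest differences of all included genes whose reads cannot be assigned with certainty. Amd1 (0.547 and 80.3 FPKM) and its copy Amd2 (60.5 and 0.00667 FPKM), which encode S-adenosylmethionine decarboxylase, mirrored each other, and their sum was 61.1 FPKM at E8.5 and 80.4 FPKM at E9.5. Rpl34-ps1, a ribosomal protein pseudogene, had the largest ratio of any higher gene (0.0201 and 122 FPKM), but with its parent Rpl34 the sums were 457 and 428 FPKM. Atp6v0c, a proton pump subunit, was at 58.98 FPKM at E9.5 and 0.00276 FPKM at E8.5, while its pseudogene Atp6v0c-ps2, named here after its values were seen, was at 54.0 FPKM at E8.5 and 8.98 FPKM at E9.5. Small nucleolar RNAs, microRNAs and genes known only by a number made up 10.3% of the higher and 9.51% of the lower genes, against 4.2% of the genes compared.

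The genes of largest ratio with symbols of their own were otherwise of varied function. Beside the Hox genes the 15 largest on the higher side included Dctpp1, a nucleotide-cleaning enzyme (1.49 and 45.7 FPKM), Akr1b3, an aldose reductase (0.00816 and 32.3 FPKM), Eci1 (listed at 0, then 15.3 FPKM), 2610528A11Rik (listed at 0, then 17.9 FPKM, and 3.43 and 80.4 FPKM in MPs), Snord96a and Snord35b. On the lower side Nmb, the peptide neuromedin B (17.8 FPKM), Slc38a8, an amino acid transporter (20.1 FPKM), Gzmk (16.7 FPKM), Urah (15.4 FPKM) and Gadd45g were all listed at 0 at E9.5, and the secreted protein gene Wfdc2 was at 30.6 and 0.910 FPKM. Others there were Tmsb15b2, 2310007L24Rik, BC089491, Pglyrp3, Gm10413 and 3830403N18Rik, each between 12.9 and 14.4 FPKM at E8.5. Among genes of higher level, singled out after their values were seen, Nr6a1, an orphan nuclear receptor of the early embryo, was at 54.1 and 6.39 FPKM in NotoPs, 59.6 and 4.35 FPKM in MPs and 41.0 and 20.2 FPKM in trunk notochord. Prtg, the cell surface protein protogenin, was at 192 and 44.7 FPKM in NotoPs (in MPs, 196 and 24.4 FPKM). Pcp4, a calmodulin-binding peptide, was at 8.83 and 91.4 FPKM in NotoPs and under 1 FPKM in MPs.

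Whether the genes changed in NotoPs moved the same way in the other cells was read from libraries that had no part in choosing them. Of the 339 higher genes, 212 were also higher in MPs at E9.5 (62.5%, 95% Wilson interval 57.3 to 67.5%), against 52.1% of all genes compared, and 86 were 3-fold higher, which is 25.4% against 10.7% of all genes. In trunk notochord 152 of them were higher (44.8%, 39.6 to 50.2%), against 47.9% of all genes, and 44 were 3-fold higher (13.0%, against 5.14%). More of them, 58, were 3-fold lower in trunk notochord (17.1%, against 7.9%). The intervals cover counting error only, and genes are not independent of each other. In trunk notochord the shares past 3-fold stood above those of all genes in either direction. These shares set genes of mostly low level beside genes of every level. Among genes with 5 FPKM in either MP library and a larger NotoP value under 20 FPKM, 83 of 147 higher genes were higher in MPs. That is 56.5% (48.4 to 64.2%), against 52.9% of all such genes, and 29.3% were 3-fold higher, against 13.0%. At 20 FPKM or more it was 40 of 64 (62.5%, 50.3 to 73.3%), against 46.1%.

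Lower genes depended on whether the other cells expressed them. Of the 326, 114 were lower in MPs (35.0%, 30.0 to 40.3%), against 46.6% of all genes, and 57 were listed at 0 at both stages there. Restricted to the 127 genes that reached 5 FPKM in either MP library, 85 were lower (66.9%, 58.4 to 74.5%), against 50.6% of all genes so restricted. Of these 127, 40 were 3-fold lower (31.5%, against 5.34%) and 19 were 3-fold higher (15.0%, against 8.94%), so both shares stood above those of all genes. Over all 326, 40 were 3-fold lower in MPs (12.3%, against 4.75% of all genes) and 55 were 3-fold higher (16.9%, against 10.7%). In trunk notochord 166 of the 326 were lower (50.9%, 45.5 to 56.3%), against 50.4% of all genes, 69 were 3-fold lower (21.2%, against 7.9%) and 29 were 3-fold higher (8.9%, against 5.14%). With 5 FPKM required there, the share was 105 of 173 (60.7%, 53.3 to 67.7%), against 50.9%. The same restriction gave 58.3% of 211 higher genes in MPs, against 49.4%, and 52.8% of 212 in trunk notochord, against 49.1%. MPs at E8.5 held visceral endoderm markers at a summed 166 FPKM, with 7 of 12 genes at 5 FPKM or more, and 8.04 FPKM at E9.5, and both trunk libraries held such markers at 179.8 and 169 FPKM. The part of these markers and of the small cell numbers in the shares was not tested. Over all 8877 genes the log2 ratios of NotoPs and MPs correlated with a Pearson r of 0.08, and those of NotoPs and trunk notochord with 0.05, a description across genes of 1 library pair each.

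**Figure D5:**
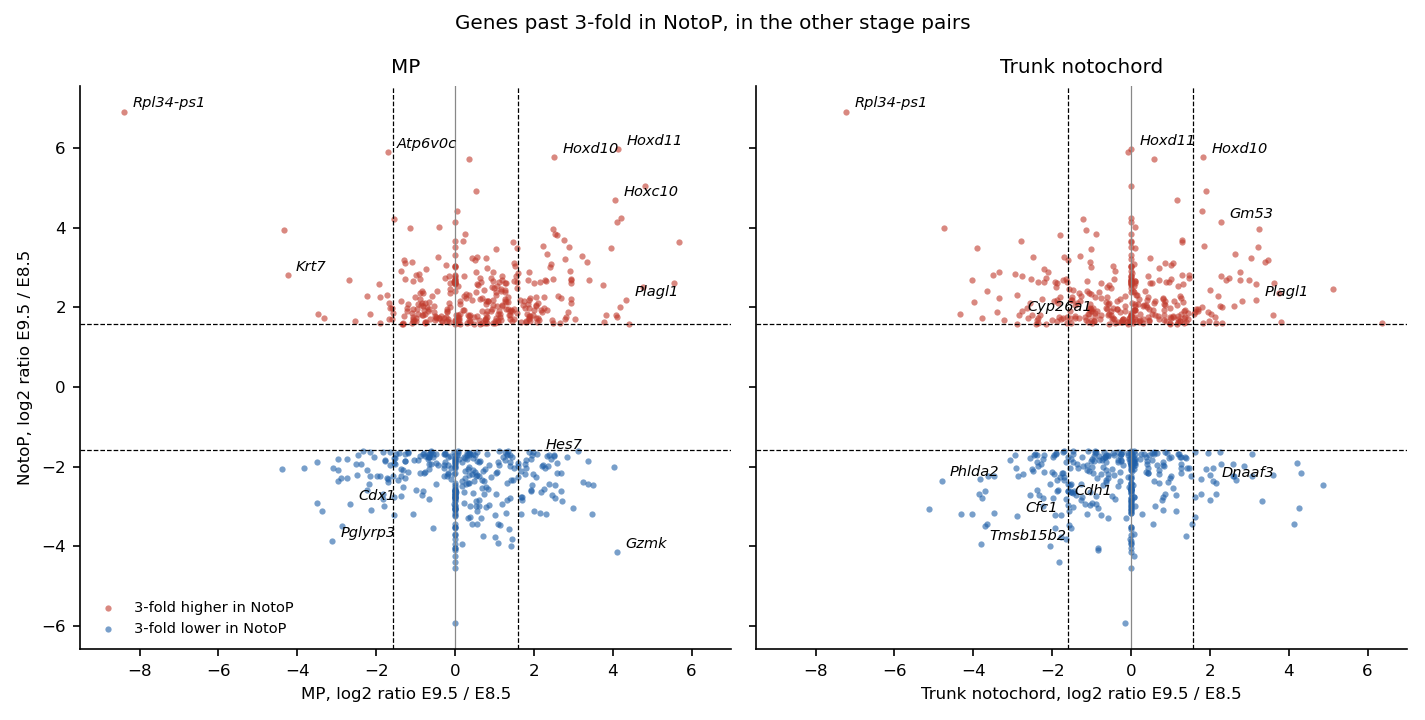
Log2 ratio of E9.5 to E8.5 in NotoPs (y axis) against the same ratio in MPs (left) and trunk notochord (right) for the 339 higher (red) and 326 lower (blue) genes, 1 gene a point. Dashed lines mark 3-fold and the grey line no difference in the other cells; Hoxd11, Hoxc10 and Plagl1 lie far to the right in MPs, and the column of blue points at 0 holds genes not detected in MPs or trunk notochord.

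Among the 339 higher genes 19 (5.6%) were 3-fold higher in all 3 cell groups (1.21% of all genes compared were so in MPs and trunk notochord), and 13 of the 326 lower genes (3.99%) were 3-fold lower in all 3 (0.879% of all genes in the other cells). Plagl1, an imprinted zinc finger factor, was at 7.53 and 37.7 FPKM in NotoPs, 0.987 and 39.2 FPKM in MPs and 2.93 and 34.3 FPKM in trunk notochord. Exosc7, an RNA exosome subunit, was at 10.0 and 44.1 FPKM in NotoPs, 7.51 and 34.4 FPKM in MPs and 8.48 and 57.3 FPKM in trunk notochord. The chemokine Cxcl12 was at 0 at E8.5 and 5.45 FPKM at E9.5 in NotoPs, 0 and 9.47 FPKM in MPs and 2.08 and 23.7 FPKM in trunk notochord. Gm53, Nme4, Scarna6, Slc10a3-ubl4, Xrcc6bp1, Pon3 and Mtfr2 made up the 10 named by the rule.

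Phlda2, an imprinted growth-restraining gene, was among the genes lower in all 3, with 39.7 and 6.99 FPKM in NotoPs, 59.9 and 6.83 FPKM in MPs and 26.9 FPKM and 0 in trunk notochord. Ppp1r1a, a phosphatase inhibitor, was at 99.0 and 23.4 FPKM in NotoPs, 48.1 and 2.47 FPKM in MPs and 20.4 and 1.84 FPKM in trunk notochord. Mt1, a metallothionein, was at 34.8 and 8.32 FPKM, 9.58 and 0.844 FPKM and 110 and 21.9 FPKM in the same order. Others named by the rule were Snora23, Vrk3, Lrrc9, Dgkk, Mettl20 and Stx3.

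Some genes were 3-fold apart in NotoPs and nearly level in both other cell groups. Of 153 higher genes that reached 5 FPKM in MPs and in trunk notochord, 10 stayed within 1.5-fold between stages in both (6.54%), and of 97 lower genes 6 did (6.19%), where 28.8% of all 7324 genes so measured did. The higher ones were led by Ccdc23 (12.9 and 63.0 FPKM in NotoPs, 14.2 and 19.4 FPKM in MPs, 12.1 and 16.3 FPKM in trunk notochord) and by Angptl2, a secreted angiopoietin-like protein (4.93 and 24.1 FPKM, 6.03 and 6.64 FPKM, 12.8 and 13.8 FPKM). Ptgis, Tmem223, BC003965, Trip10, Med6, Mrpl39, Hcfc1r1 and Wdr5 were the rest. The lower ones included Ascc1 (48.2 and 7.79 FPKM in NotoPs), Hist1h2bf, Bag2, Ndufaf1 and Bcorl1.

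Neighbouring genes were looked at because position had no part in the rule. With gene positions from GENCODE (GRCm38) for 334 higher and 319 lower genes, 42 higher genes (12.6%) had another higher gene within 50 kb, where 6.78% of all 8805 placed genes had a higher gene that near, and 11 of the 42 were the Hox genes of the A, C and D clusters. Among lower genes 24 (7.52%) had a lower neighbour, against 5.71%. These pairs included Mt1 and Mt2, 5514 bases apart, and the overlapping pairs Chrd with Thpo and Dnaaf3 with Tnni3, whose reads may be shared (Mt2, Thpo and Tnni3 were singled out after their values were seen). The changed genes had shorter transcripts, with a median longest transcript of 2303 bases for the higher and 2263 bases for the lower genes, against 3431 bases for all placed genes.

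Binding of T and Foxa2 was available from NotoPdiff cells, in which Foxa2 is induced from a transgene, as 6875 T and 22684 Foxa2 peaks. A peak summit of either factor lay within 5 kb of an annotated start site for 78 of 334 higher genes (23.4%, 19.1 to 28.2%), 91 of 319 lower genes (28.5%, 23.9 to 33.7%) and 26.95% of all placed genes, a share that lay inside both intervals. For T, with or without Foxa2, the shares were 8.68% of higher genes (6.11 to 12.2%), 16.6% of lower genes (12.9 to 21.1%) and 11.4% of all genes. For Foxa2, with or without T, they were 17.1% of higher genes (13.4 to 21.5%), 18.8% of lower genes (14.9 to 23.5%) and 19.2% of all genes. Peaks of both factors lay near 8 higher genes (2.4%), 22 lower genes (6.9%, 4.6 to 10.2%) and 3.67% of all genes. Genes with both are counted in the T shares and in the Foxa2 shares. Changed genes of the node and signal lists were among the lower ones with peaks. Cfc1 had a T summit 1325 bases and a Foxa2 summit 1364 bases downstream of a start site, in an intron, and Chrd had summits of T and Foxa2 3166 and 3072 bases upstream, near Thpo as well. Ntn1 had a Foxa2 summit 2068 bases upstream of an internal start site, so that summit lies within the gene (chromosome 11, 68209364 to 68400823). Dnaaf3 and Hes7 had T summits 2004 bases downstream and 1339 bases upstream of a start site.

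The summit base with 50 bases on each side is printed for 3 Foxa2 peaks chosen because they hold a match and for both peaks of Chrd, which hold none, to show the bound sequence beside genes of the node, signal and Hox groups. They are plus strand sequences of GRCm38, read from the RefSeq genome, outside annotated exons, and capitals mark any match on either strand to a forkhead motif, spelled TGTTTAC in its usual form, TGTTTGC with a changed sixth letter and TATTTAC with a changed second letter, or to the core of the T site, TCACAC.
Cfc1, lower, Foxa2 summit, chr1:34536962-34537062: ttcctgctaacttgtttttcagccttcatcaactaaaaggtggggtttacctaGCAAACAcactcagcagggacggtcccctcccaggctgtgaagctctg
Ntn1, lower, Foxa2 summit, chr11:68389030-68389130: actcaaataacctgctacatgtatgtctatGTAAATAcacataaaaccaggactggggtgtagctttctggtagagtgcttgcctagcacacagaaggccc
Hoxd3 and Hoxd8, higher, Foxa2 summit, chr2:74708791-74708891: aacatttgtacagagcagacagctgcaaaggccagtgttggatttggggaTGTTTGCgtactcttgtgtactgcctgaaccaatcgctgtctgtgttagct
Chrd, lower, Foxa2 summit, chr16:20730005-20730105: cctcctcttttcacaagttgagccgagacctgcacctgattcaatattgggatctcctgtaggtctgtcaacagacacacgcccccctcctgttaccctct
Chrd, lower, T summit, chr16:20729911-20730011: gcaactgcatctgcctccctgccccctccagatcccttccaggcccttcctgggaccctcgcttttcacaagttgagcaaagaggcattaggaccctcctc

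Windows were read at changed genes with peaks of both factors and at some genes picked by hand, so they do not stand for all changed genes. Of 33 such Foxa2 windows, 8 hold a forkhead match, and the windows of Chrd, Bmp5 and Fgf20 do not (Fgf20 was singled out after its values were seen). Of 33 T windows so read, 7 hold a forkhead match and 4 hold TCACAC. A forkhead match occurred in 26.0% of windows of the same size over 22680 Foxa2 summits and in 17.1% of those over 6871 T summits. TCACAC occurred in 23.4% of the windows over those 6871 T summits. The window between Hoxd8 and Hoxd3 is the same peak for both genes, 3689 bases downstream of a Hoxd8 start and 3086 bases upstream of a Hoxd3 start. A match describes the letters and does not show that the factor uses them, and these peaks come from cultured cells in which the posterior Hox genes were at or near 0.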

How the data were processed

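RNA was sequenced from sorted embryonic and cultured cells, 1 library a group. Per the labels and the study's methods, the authors trimmed reads, aligned them with TopHat2 2.1.1 and Bowtie 1.2.2 to mm10, removed duplicates by molecular tags and deposited FPKM from Cufflinks 2.2.1 with RefSeq genes, as 1 table of 9 columns. Peaks are the authors' narrowPeak files (Bowtie 1.3.1, MACS3 3.0.0b1), with the deposited fold enrichment, −log10 p- and q-values, of which summits and q-values were used. FPKM were compared as log2(FPKM + 1), which understates changes of low genes; genes needed 5 FPKM in either NotoP library. Read counts per gene were not used here, so single genes have no interval, and shares have 95% Wilson intervals. Genes were named by a rule: the 15 largest ratios a direction, the 10 strongest in all 3 cell groups, the 10 strongest level in both others, and members of the lists. The rule, members and lists were chosen with earlier results of these data known. Symbols were placed on GENCODE (GRCm38) for 99.2% of genes compared. Alternatives were another pseudocount, minimum, scaling, fold limit, symbol filter, peak distance and peak limit. Python 3.11.15 was used, and the procedure was tested on simulated data. Values of some genes that the rule names are not reported here.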

Additional observations from a re-analysis of the deposited data

Results flagged for a closer look

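Of the 665 changed genes 153 were 3-fold apart in the opposite direction in MPs or trunk notochord, with 1 library a stage and the difference not tested. Of all genes compared, 10.7% were 3-fold higher and 4.75% 3-fold lower in MPs. In trunk notochord these shares were 5.14% and 7.9%. Given here are the 5 of the 153 that the naming rule holds and whose larger NotoP value was 20 FPKM or more. The log2 ratio of E9.5 to E8.5 of Rpl34-ps1, whose reads can be shared with Rpl34, was 6.92 in NotoPs, -8.40 in MPs and -7.22 in trunk notochord. Atp6v0c, which has a pseudogene in the table, was at 5.90 in NotoPs and -1.69 in MPs. Cyp26a1 was at 1.82 in NotoPs and -2.84 in trunk notochord. Ankrd37 was at -2.26 in NotoPs and 1.596 in MPs, where it was listed at 0 at E8.5. Hes7 was at -1.67 in NotoPs and 2.09 in MPs, the cells that form the segmenting mesoderm.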

How the results depend on the processing

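No leave-one-out or test was possible with 1 library a stage. No paired analysis was possible because each group holds 1 library. Of 80 values recomputed under alternatives, 53 stayed within the margin set and 27 moved. The 339 higher genes became 67 with a pseudocount of 5, 551 with a minimum of 1 FPKM, 70 with a minimum of 20 FPKM, 815 at 2-fold and 190 at 4-fold. The 326 lower genes became 80 with a pseudocount of 5, 75 with a minimum of 20 FPKM, 798 at 2-fold and 204 at 4-fold. The counts below for Hox and cilia genes, and the restriction to genes with 5 FPKM in the other cells, were chosen after seeing the data. The 11 higher Hox genes became 7 with a pseudocount of 5 and 7 with a minimum of 20 FPKM. The 5 lower cilia and left-right genes became 2 with a pseudocount of 5, 0 with a minimum of 20 FPKM and 3 among genes above 0 in both libraries, so that group rests on genes of low level. The share of higher genes also higher in trunk notochord went from 44.8% to 53.7% with a pseudocount of 5 and 52.8% among genes with 5 FPKM there. That of lower genes also lower in MPs went from 35.0% to 53.3% with a minimum of 20 FPKM, 40.5% among genes above 0 in both NotoP libraries, 42.6% at 2-fold, 28.9% at 4-fold and 66.9% among genes with 5 FPKM in MPs. That of lower genes also lower in trunk notochord went from 50.9% to 57.5% with a pseudocount of 5, 44.9% with a minimum of 1 FPKM, 60% with a minimum of 20 FPKM and 60.7% among genes with 5 FPKM there. With 10 kb in place of 5 kb, a peak lay near 32.3% of higher and 40.1% of lower genes, against 37.8% of all placed genes. Beyond the construction of each alternative, the cause was not tested.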

Other observations

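Some genes outside the lists, singled out after their values were seen, had large differences at moderate levels. Cdk18, a cyclin-dependent kinase, was at 47.4 FPKM at E8.5 and 3.17 FPKM at E9.5 in NotoPs. Ndrg1, a gene known to respond to stress, was at 72.1 and 15.6 FPKM. Mfap4, a protein of the extracellular matrix, was at 13.7 and 83.4 FPKM, and Ckb, the brain form of creatine kinase, at 19.1 and 80.2 FPKM. Dact1, a Wnt pathway modulator, was at 10.9 and 42.7 FPKM in NotoPs, 9.95 and 49.2 FPKM in MPs and 16.49 and 0.651 FPKM in trunk notochord.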
